A study of Sus scrofa with 12 samples.

Results

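Mitochondrial ribosomal proteins build the ribosome that works inside mitochondria, and 61 of the 21169 rows of the liver gene table carry a symbol of this family. They were chosen by symbol alone, as every row whose symbol begins with MRPL or MRPS and a number, which gave 37 genes named for the large subunit and 24 named for the small subunit. All 61 passed the filter on low counts, and the lowest count of any member in any library was 65. A further 13 rows carry no symbol but are described as mitochondrial ribosomal proteins, and they are given apart from the 61.

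The mitochondrial ribosome translates the mRNAs of the mitochondrial genome, which encode core subunits of the respiratory chain and the ATP synthase. Its ribosomal RNAs are made in the mitochondrion, but all of its proteins are encoded in the nucleus, translated in the cytosol and imported. Many of them have a relative in the bacterial ribosome, and the others are additions found in mitochondria. In liver, whose hepatocytes are rich in mitochondria, this translation supplies those core subunits, on which the oxidation of fatty acids and other fuels depends.

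The 12 libraries came from livers of Hezuo and Bama pigs, all sampled on day 15. The animals of 1 group of each breed were kept at 23 ± 2 °C, called room temperature here, and those of the other at -15 ± 2 °C, called cold. This gave 4 groups of 3 libraries, namely Bama at room temperature, Bama in the cold, Hezuo at room temperature and Hezuo in the cold, and the labels name no other treatment, allele or age. They number the pigs 1 to 3 in every group and do not say whether a number stands for the same animal at both temperatures. The study asked which RNAs relate to how Hezuo pigs withstand cold. Total RNA depleted of ribosomal RNA was sequenced, and the estimated counts summed to between 20041285 and 30188037 per library.

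Other features of the libraries moved with the groups. Hepatocyte markers (8 of 9 genes found, as 10 rows) summed to 123905 to 137491 CPM (counts per 1000000 counts of a library) in Bama at room temperature and 41267 to 102384 CPM in the cold, and to 163377 to 183969 CPM and 76649 to 153428 CPM in Hezuo. These rows did not move together: for cold averaged over breeds 3 fell (TF at -1.04, TTR at -0.90 and SERPINA1 at -0.85 in log2 fold change), 1 rose (HNF4A at 0.98), and 4 of the 10 were positive. Sums of 8 macrophage markers were 1725 to 2387 CPM and 2457 to 4116 CPM in Bama, then 1354 to 2050 CPM and 2002 to 3247 CPM in Hezuo, in the same order. For 7 stellate cell and fibroblast markers they were 1995 to 4149 CPM and 646 to 1132 CPM, then 1373 to 2374 CPM and 747 to 1304 CPM. The T and NK cell markers, 6 in all, summed to 82.8 to 185 CPM in Bama but 43.3 to 73.4 CPM in Hezuo at room temperature, and the 4 red cell markers tested to 1394 to 5295 CPM but 4457 to 14792 CPM. No gene of these lists was at 0 in every library. The Y-linked gene DDX3Y had at least 1331 counts in 8 libraries and at most 3 in the remaining 4, which were the room temperature group of Bama and replicate 2 of its cold group, so Bama replicates 1 and 3 differed between the temperatures in this RNA. The part of cell makeup in the results was not tested. That of Y-linked RNA was looked at only by holding its presence as a term in the fit. Within groups that presence varied only in Bama in the cold, so the term rested on replicate 2 against replicates 1 and 3 there. A call lost with this term thus cannot say what part Y-linked RNA had. In bulk tissue, fewer cells of a type and less RNA per cell cannot be told apart.

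The members covered a 40.2-fold range of level, given here as the deposited FPKM, which corrects for gene length and so allows genes to be compared. Their median, taken over each gene's mean of 12 libraries, was 9.25 FPKM, against 4.75 FPKM for all genes tested, and 45 of 61 members lay above the latter value. The highest was MRPL28, a large subunit protein with a bacterial relative, at 40.6 FPKM in the lowest library, 52.1 FPKM at the median and 55.7 FPKM in the highest. MRPL4, which lines the exit tunnel of the nascent chain, followed with a mean of 34.0 FPKM, then MRPL57 with 31.1 FPKM, MRPL37 with 30.01 FPKM and MRPS18B with 26.6 FPKM. The ranges of these last 4 overlapped, so their order is not resolved beyond the spread between libraries.

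The lowest mean was that of MRPL21, a large subunit protein with a bacterial relative, at 1.27 FPKM (range 0.95 to 1.76 FPKM). MRPS18C followed at 1.39 FPKM, MRPS28 at 1.53 FPKM, and MRPS11 and MRPL20 both at 1.72 FPKM, again with overlapping ranges. By structural class, the median was 9.93 FPKM for the 22 large subunit proteins with a bacterial relative. It was 9.97 FPKM for the 17 large subunit proteins classed as mitochondria-specific. It was 9.25 FPKM for the 9 mitochondria-specific small subunit proteins and 3.16 FPKM for the 12 small subunit proteins with a bacterial relative. These classes follow the place of each protein in the particle, so MRPS18A and MRPS30, which sit in the large subunit despite their symbols, count there with 10.5 FPKM and 9.95 FPKM. MRPS36, known mainly as a component of the 2-oxoglutarate dehydrogenase complex and no stable part of the ribosome, had 5.43 FPKM.

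**Figure D1:**
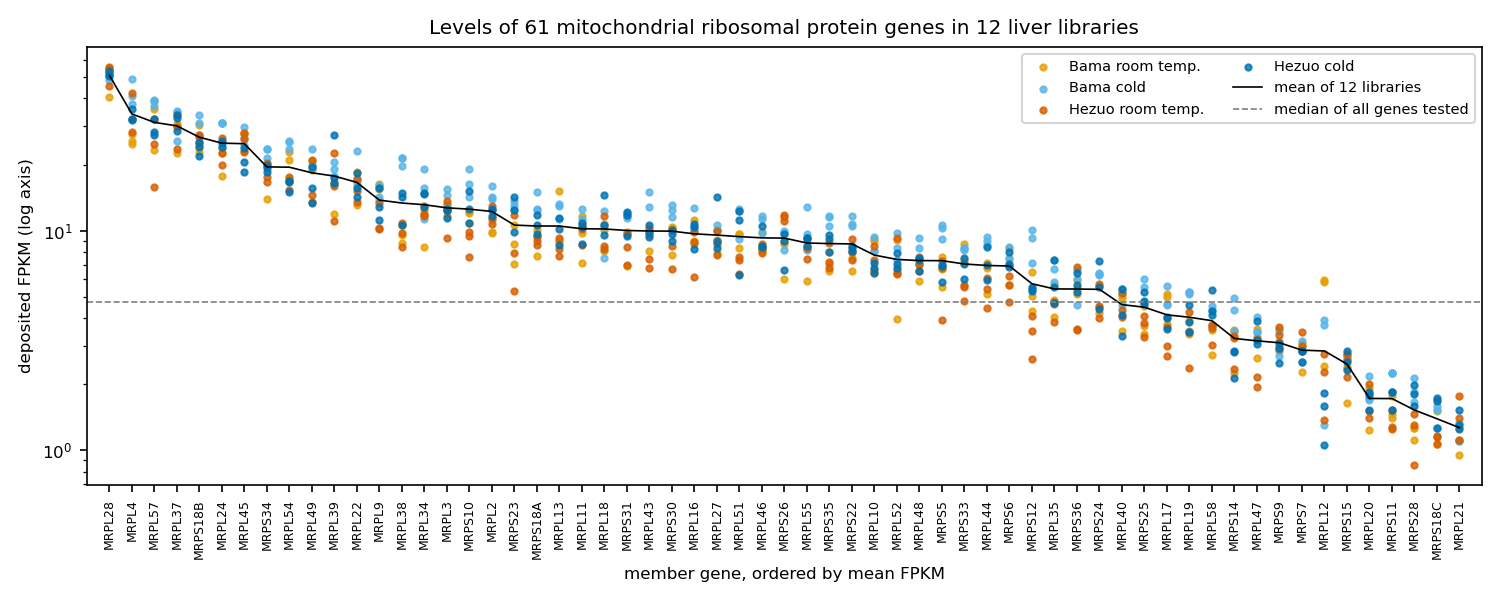
Deposited FPKM (log axis) of each of the 61 members in each of the 12 libraries, ordered by their mean, which the black line joins; colours mark the 4 groups and the dashed line the median of all genes tested, 4.75 FPKM. Means fall from 51.0 FPKM for MRPL28 to 1.27 FPKM for MRPL21, and MRPL12 has the widest spread.

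Replicates of a group differed less in the members than in genes at large. The median within-group SD was 0.19 on the log2 CPM scale for members and 0.27 for all genes tested. The members also had the higher median level, 9.25 FPKM against 4.75 FPKM. Whether their SD was lower than that of genes of like level was not tested. MRPS22, a mitochondria-specific small subunit protein, varied least, with an SD of 0.06. MRPL12, which forms the flexible stalk of the large subunit and also binds the mitochondrial RNA polymerase, varied most, with an SD of 0.64. MRPL39 came next at 0.35.

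The summed level of the 61 members, on CPM scaled by the trimmed mean of M-values (TMM), stood at 1053, 928 and 1001 CPM in the Bama room temperature libraries and at 1079, 1101 and 1213 CPM in Bama in the cold. The 2 Bama groups did not overlap. In Hezuo it was 1213, 992 and 1154 CPM at room temperature and 1167, 1099 and 1259 CPM in the cold, and those groups overlapped. Members with MRPS symbols summed to 291 to 321 CPM and 353 to 377 CPM in the Bama groups. In the Hezuo groups they summed to 323 to 367 CPM and 358 to 396 CPM. These sums go by symbol and so include MRPS18A, MRPS30 and MRPS36. The ratio of the MRPL sum to the MRPS sum stayed between 2.04 and 2.31 in all 12 libraries.

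**Figure D2:**
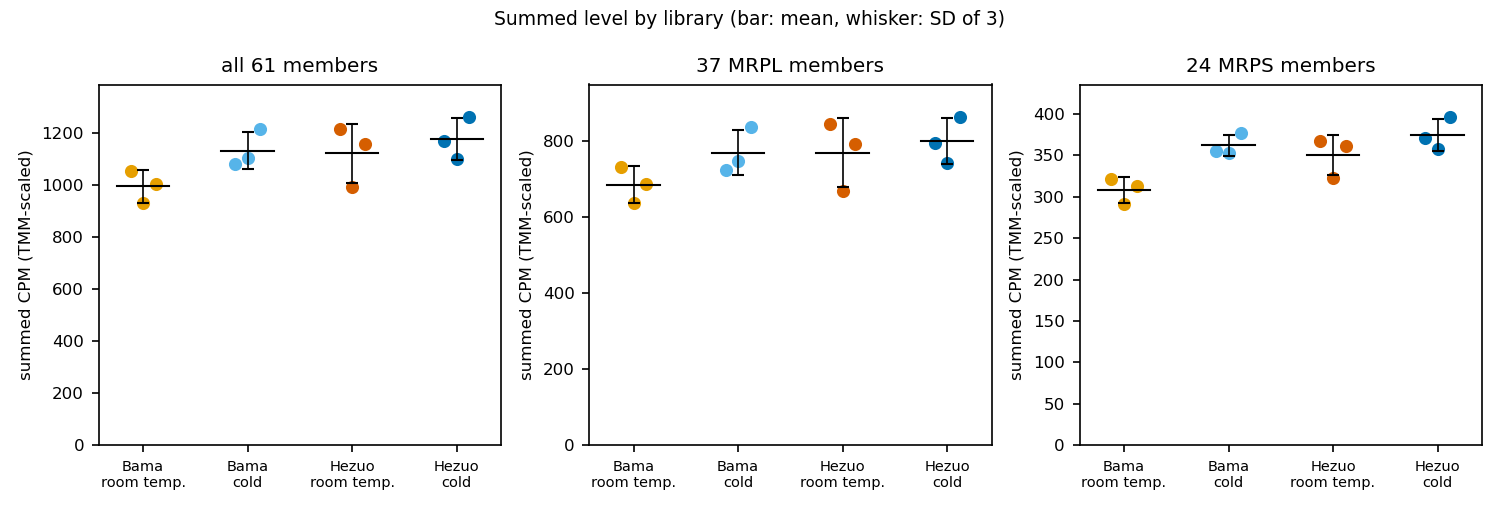
Summed TMM-scaled CPM of all 61 members, of the 37 MRPL members and of the 24 MRPS members, with a point for each library, the mean as a bar and the SD of 3 libraries as a whisker. All 3 Bama libraries in the cold (1079 to 1213 CPM) sit above the 3 at room temperature (928 to 1053 CPM), while the Hezuo groups overlap.

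Cold was first compared with room temperature within Bama. There, 45 of 61 members had a positive log2 fold change, with a median of 0.17, while 48.5% of all genes tested were positive, with a median of -0.01. Only MRPL38, a mitochondria-specific protein of the large subunit's central protuberance, was called at an adjusted p below 0.05 (edgeR quasi-likelihood test, Benjamini-Hochberg over 13532 genes). That is 1 of 61 members, beside 0.924% of all genes called. At an unadjusted p below 0.05 there were 14 members, beside 15.8% of all genes, and all 14 were higher in the cold. DESeq2 called 4 members, beside 5.04% of all genes. The members' median fell to 0.10 without Bama replicate 2 at room temperature or Bama replicate 3 in the cold and to 0.09 with Y-linked RNA as a term, and it was 0.31 with library sizes alone, where that of all genes was 0.14.

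MRPL38 (ENSSSCG00000017196) stood at 41.5, 38.2 and 34.0 CPM in Bama at room temperature and at 65.9, 63.9 and 74.3 CPM in Bama in the cold. Every cold library was above every room temperature library. The log2 fold change was 0.84 ± 0.16 (SE, n = 3 and 3), with an adjusted p of 0.0343 by edgeR's quasi-likelihood test. With Y-linked RNA as a term it was 0.75 with an adjusted p of 0.742, and fitted on the Bama groups alone the adjusted p was 0.0818, so the call was lost in both fits. It was also lost without any 1 of 6 libraries (each Bama library at room temperature, Bama replicates 1 and 3 in the cold, and Hezuo replicate 3 at room temperature), with an adjusted p of 0.0535 to 0.124. In Hezuo, MRPL38 stood at 52.0, 37.8 and 41.6 CPM at room temperature and 62.03, 45.6 and 58.98 CPM in the cold, and those groups overlapped.

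In Bama, 21 of 61 members were higher in all 3 cold libraries than in any at room temperature, beside 11.2% of all genes, and 1 member, MRPL9, was lower in all, beside 10.2%. Of the 21, 14 were among the 24 MRPS members and 7 among the 37 MRPL members. MRPS22 gave the tightest separation, at 17.3, 18.4 and 18.5 CPM against 24.1, 24.1 and 24.5 CPM, with a log2 fold change of 0.43 ± 0.10 (SE) and an adjusted p of 0.0778 that missed the threshold. Its span overlaps that of COPB2 in the RefSeq annotation of Sscrofa11.1, and COPB2 had a log2 fold change of -0.20 in the same comparison. MRPL4 went from 49.5, 48.0 and 44.8 CPM to 64.9, 61.9 and 84.9 CPM without overlap (log2 fold change 0.57, adjusted p 0.138).

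At the other end in Bama stood MRPL12 with a log2 fold change of -0.82, MRPS9 with -0.26 and MRPL9 with -0.21, none of them called. MRPL12 had 24.5, 10.9 and 24.1 CPM at room temperature and 14.5, 14.1 and 5.25 CPM in the cold. Its groups overlapped because of replicate 2 at room temperature, and the SE of 0.43 and adjusted p of 0.386 reflect that spread.

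In Hezuo, no member was called between cold and room temperature by edgeR's quasi-likelihood test, beside 0.281% of all genes, and none by DESeq2, beside 3.99%. At an unadjusted p below 0.05 there were 10 members, 8 higher and 2 lower, beside 15.6% of all genes. Positive log2 fold changes were seen in 41 of 61 members, with a median of 0.11, against 48.4% and a median of -0.01 over all genes. Without Hezuo replicate 2 at room temperature, 34 of 61 were positive and the median was 0.02, beside 0.01 for all genes, and without Hezuo replicate 3 or 2 in the cold the median was 0.07 or 0.18. Groups did not overlap for 7 members that were higher in the cold, beside 10.8% of genes, and for 4 that were lower, beside 10.9%.

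The 3 highest log2 fold changes in Hezuo were those of MRPS12 (0.64), a core protein of the decoding centre, MRPS28 (0.52) and MRPS10 (0.47). MRPS12 had 4.01, 2.95 and 4.30 CPM at room temperature and 6.04, 5.56 and 5.9998 CPM in the cold, without overlap. MRPS10 had 20.1, 15.2 and 18.4 CPM against 24.3, 20.3 and 29.9 CPM, also without overlap. Both had an adjusted p of 0.193 and missed the threshold. The lowest were MRPL12 (-0.57), MRPS26 (-0.43) and MRPL45 (-0.32), the last of which anchors the ribosome near the inner membrane. MRPS26 was lower without overlap, at 15.3, 14.3 and 14.3 CPM against 13.02, 11.4 and 8.24 CPM (adjusted p 0.288).

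Averaged over both breeds, 3 members were called at an adjusted p below 0.05, beside 3.89% of all genes, and all 3 rose in the cold. They were MRPL38 (log2 fold change 0.59 ± 0.11, adjusted p 0.0194), MRPS12 (0.62 ± 0.15, adjusted p 0.042) and MRPS5 (0.42 ± 0.10, adjusted p 0.0459), with SE over 12 libraries in edgeR's quasi-likelihood test. In all, 48 of 61 members were positive with a median of 0.14, against 48.7% and a median of -0.01 for all genes tested, and with library sizes alone the medians were 0.23 and 0.09. There were 20 members at an unadjusted p below 0.05, 17 higher and 3 lower, against 23.5% of all genes.

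MRPS12 (ENSSSCG00000031860), a relative of the bacterial protein in which streptomycin resistance arises, had 6.07, 4.41 and 4.64 CPM in Bama at room temperature and 7.71, 6.11 and 9.15 CPM in Bama in the cold. These groups did not overlap, though the lowest cold library lay only just above the highest at room temperature. MRPS5 (ENSSSCG00000008113), which lies near the entry of the mRNA channel, had 12.9, 11.6 and 12.2 CPM and then 16.3, 18.0 and 20.1 CPM in Bama, without overlap. In Hezuo it had 16.1, 14.7 and 11.6 CPM at room temperature and 15.7, 19.4 and 16.3 CPM in the cold, and the groups overlapped. MRPS10 (0.41, adjusted p 0.0589), MRPS18A (0.30, adjusted p 0.0707) and MRPS28 (0.51, adjusted p 0.0711) were next by p in the same test and missed the threshold.

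The lowest averaged cold responses were those of MRPL12 (-0.69, adjusted p 0.198), MRPS9 (-0.27, adjusted p 0.158) and MRPL45 (-0.22, adjusted p 0.209), none called. MRPS9, a small subunit protein with a bacterial relative, had 14.3, 16.1 and 16.98 CPM in Hezuo at room temperature and 13.6, 13.8 and 11.9 CPM in Hezuo in the cold, without overlap. In Bama it had 12.2, 15.8 and 12.5 CPM against 10.2, 12.97 and 10.6 CPM, with overlap.

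These 3 calls were lost when Y-linked RNA was a term, a fit that called 0.0443% of all genes, and the adjusted p was 0.181 for MRPL38, 0.348 for MRPS12 and 0.3 for MRPS5, with log2 fold changes of 0.55, 0.46 and 0.42. MRPL38 lost its call without Bama replicate 3 at room temperature (adjusted p 0.0552) and kept it without each other library. MRPS12 kept its call only without Bama replicate 1 at room temperature or Bama replicate 2 in the cold, and its adjusted p was 0.0574 to 0.105 without any 1 of the other 10. MRPS5 kept its call only without Hezuo replicate 1 in the cold, and its adjusted p was 0.0505 to 0.107 without any 1 of the other 11. It was also lost with no filter on low counts (0.0539) and with upper-quartile factors (0.0601). DESeq2 called 9 members in this comparison, these 3 among them, beside 11% of all genes.

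The responses of the breeds were set against each other with an interaction term. No member was called by edgeR's quasi-likelihood test or by DESeq2, beside 0.00739% of all genes called by the former, which is 1 gene, and 1.03% by the latter. Positive differences were seen in 24 of 61 members, beside 49.7% of all genes, and in 16 without Hezuo replicate 2 at room temperature. There were 3 members at an unadjusted p below 0.05, beside 8.02% of all genes, all with a negative difference, Hezuo minus Bama: MRPS22 with a log2 difference of -0.48 ± 0.14 (SE, adjusted p 0.379), MRPL4 with -0.67 (adjusted p 0.487) and MRPL38 with -0.50 (adjusted p 0.593). In Hezuo alone the log2 fold changes for cold were -0.05 for MRPS22, -0.09 for MRPL4 and 0.34 for MRPL38, none called. MRPS14 had -0.57 without reaching that level. The largest positive differences were those of MRPS18C (0.54), MRPL18 (0.39) and MRPS6 (0.39).

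**Figure D3:**
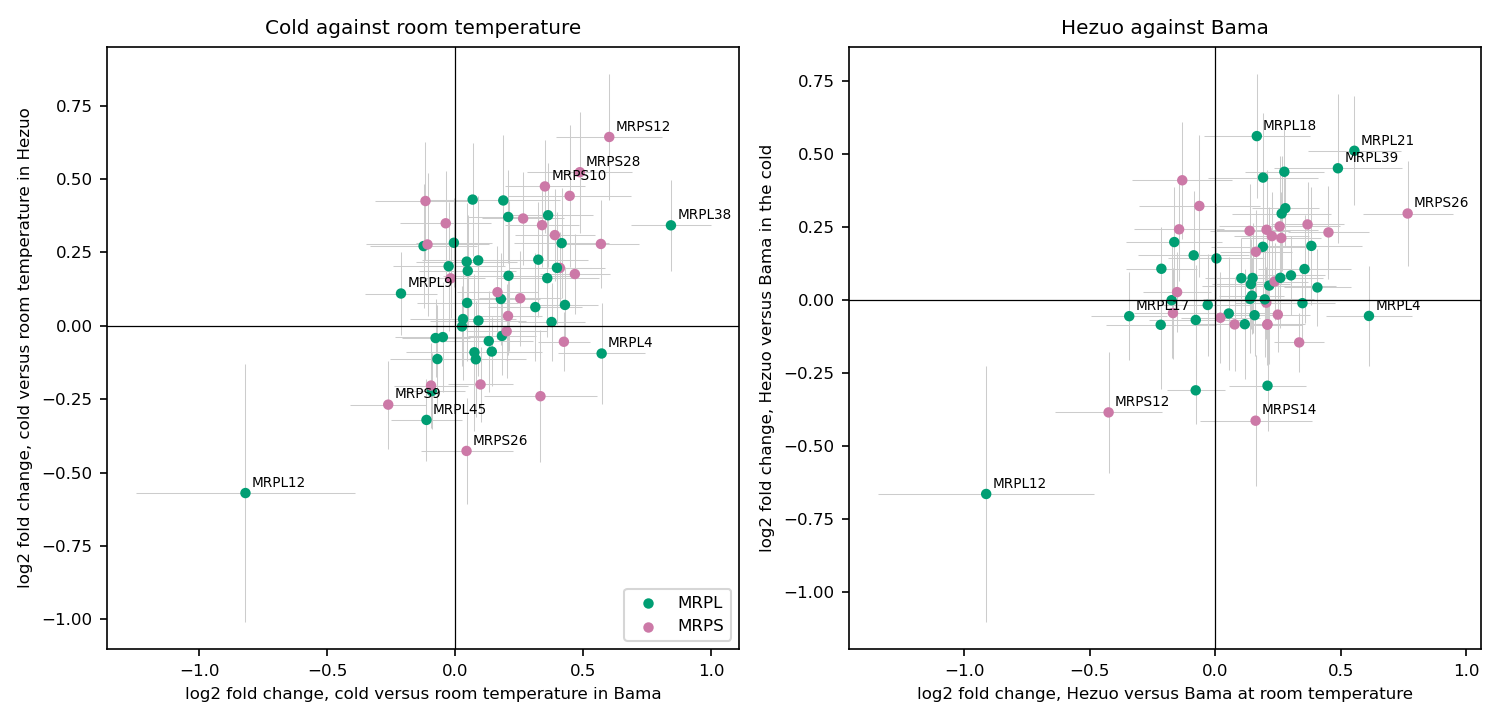
Log2 fold changes of the 61 members with SE as grey bars: on the left cold against room temperature in Bama (x axis) and in Hezuo (y axis), on the right Hezuo against Bama at room temperature (x axis) and in the cold (y axis). Most points lie right of 0 on both x axes, 45 of 61 in each, and the members with the 3 highest and 3 lowest values on either axis are named; MRPL12 lies at the low end of all 4 axes.

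Hezuo was compared with Bama at each temperature. At room temperature, 45 of 61 members were higher in Hezuo with a median log2 fold change of 0.17, against 49.6% and a median near 0 over all genes, but when only library sizes were used for scaling the members' median was -0.06 and that of all genes -0.22. The median of the members lay above that of all genes by 0.17 with TMM and by 0.16 with library sizes. It was 0.05, with 36 members higher, when Y-linked RNA was a term, 0.08 without Hezuo replicate 1 and 0.09 without Bama replicate 2 at room temperature. In the cold, 38 of 61 were higher, beside 49.3% of all genes, with a median of 0.06, and -0.25 with library sizes alone, where all genes had -0.32. This median was 0.02 with Y-linked RNA as a term, with upper-quartile factors or without Bama replicate 2 in the cold, 0.03 without Hezuo replicate 3 in the cold and 0.11 without Bama replicate 3 in the cold. The comparison at room temperature and that of cold in Bama share the 3 Bama libraries at room temperature.

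No member was called at room temperature by edgeR's quasi-likelihood test, beside 1.08% of all genes, with 10 at an unadjusted p below 0.05, beside 19.8%. DESeq2 called 3, which were MRPL4, MRPS22 and MRPS26, beside 7.66% of all genes. None was called in the cold, beside 2.76% of all genes, with 5 at an unadjusted p below 0.05, beside 21.1%, and DESeq2 called none, beside 9.07%. Groups did not overlap for 12 members higher in Hezuo at room temperature, beside 13% of genes, and for 7 in the cold, beside 12.3%. With library sizes alone these counts were 2, beside 4.69% of all genes, and 0, beside 3.77%. Lower in Hezuo without overlap were 1 member at room temperature, beside 10.8%, and 4 in the cold, beside 12.9%.

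At room temperature, the 3 highest log2 fold changes of Hezuo over Bama were those of MRPS26 (0.77, adjusted p 0.0589), MRPL4 (0.61, adjusted p 0.0945) and MRPL21 (0.55, adjusted p 0.135). MRPL4 had 91.7, 59.7 and 66.2 CPM in Hezuo, all above the 3 Bama values at room temperature given before. The 3 lowest were those of MRPL12 (-0.91), MRPS12 (-0.43) and MRPL17 (-0.34). In the cold, MRPL18 (0.56), MRPL21 (0.51) and MRPL39 (0.45) were highest. MRPL18 had 8.42, 9.63 and 6.59 CPM in Bama and 11.2, 9.83 and 15.3 CPM in Hezuo, which did not overlap. The lowest in the cold were MRPL12 (-0.66), MRPS14 (-0.41) and MRPS12 (-0.38). MRPS12 was lower in Hezuo at both temperatures without overlap, and it was called at neither.

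Averaged over both temperatures, 2 members were called at an adjusted p below 0.05, beside 12% of all genes, and both were higher in Hezuo. Of all 61, 46 were higher in Hezuo, beside 50.2% of all genes, and 13 had an unadjusted p below 0.05, beside 29.9%, while with library sizes alone 12 of 61 were higher. MRPS26 (ENSSSCG00000007165), a mitochondria-specific small subunit protein, stood at 9.12, 7.72 and 8.96 CPM in Bama and 15.3, 14.3 and 14.3 CPM in Hezuo at room temperature, without overlap. In the cold the values were 9.38, 7.33 and 9.90 CPM in Bama and 13.02, 11.4 and 8.24 CPM in Hezuo, and replicate 3 of Hezuo fell among the Bama libraries. In the deposited FPKM, the mean of MRPS26 at room temperature was 7.86 in Bama and 11.45 in Hezuo. In the cold it was 9.30 in Bama and 8.40 in Hezuo, so Hezuo was then the lower on that scale. Its averaged log2 fold change was 0.53 ± 0.13 (SE, adjusted p 0.0228, edgeR's quasi-likelihood test). The span of MRPS26 overlaps that of GNRH2 in RefSeq, which did not pass the filter on low counts here.

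MRPL21 (ENSSSCG00000012879), the member with the lowest FPKM, had 4.56, 4.08 and 4.92 CPM in Bama and 6.73, 5.22 and 7.99 CPM in Hezuo at room temperature, and 4.75, 3.99 and 4.20 CPM against 5.94, 6.68 and 5.80 CPM in the cold. On this scale all 6 Hezuo libraries were above all 6 Bama libraries, but the breeds overlapped with library sizes alone (Bama up to 5.69 CPM, Hezuo from 4.68 CPM) and in the deposited FPKM (Bama up to 1.33, Hezuo from 1.11). The averaged log2 fold change was 0.53 ± 0.13 (SE, adjusted p 0.0252, edgeR's quasi-likelihood test). Both calls were lost with Y-linked RNA as a term, a fit that called 0.155% of all genes, with log2 fold changes of 0.27 for MRPS26 and 0.42 for MRPL21 and adjusted p of 0.607 and 0.449. MRPS26 lost its call without Hezuo replicate 1 at room temperature (adjusted p 0.0611) or Hezuo replicate 1 in the cold (0.0585). MRPL21 lost it without Bama replicate 1 at room temperature, Bama replicate 2 in the cold, Hezuo replicate 1 or 3 at room temperature or Hezuo replicate 1 or 2 in the cold, with an adjusted p of 0.0513 to 0.062. Both were also lost with library sizes alone, where each had a log2 fold change of 0.27 and the adjusted p was 0.143 and 0.174.

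Next by p were MRPL58 (0.36, adjusted p 0.0577), a ribosome-bound enzyme that frees the nascent chain from stalled ribosomes, and MRPL28 (0.30, adjusted p 0.06), by edgeR's quasi-likelihood test. The 3 lowest averaged values were those of MRPL12 (-0.79, adjusted p 0.114), MRPS12 (-0.40) and MRPL17 (-0.20). MRPL12 had 11.5, 13.6 and 6.55 CPM in Hezuo at room temperature and 7.56, 4.87 and 8.86 CPM in Hezuo in the cold. The Hezuo values overlapped those of Bama at both temperatures, and DESeq2, which called 7 members beside 19% of all genes, called MRPL12 with an adjusted p of 0.0496.

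**Figure D4:**
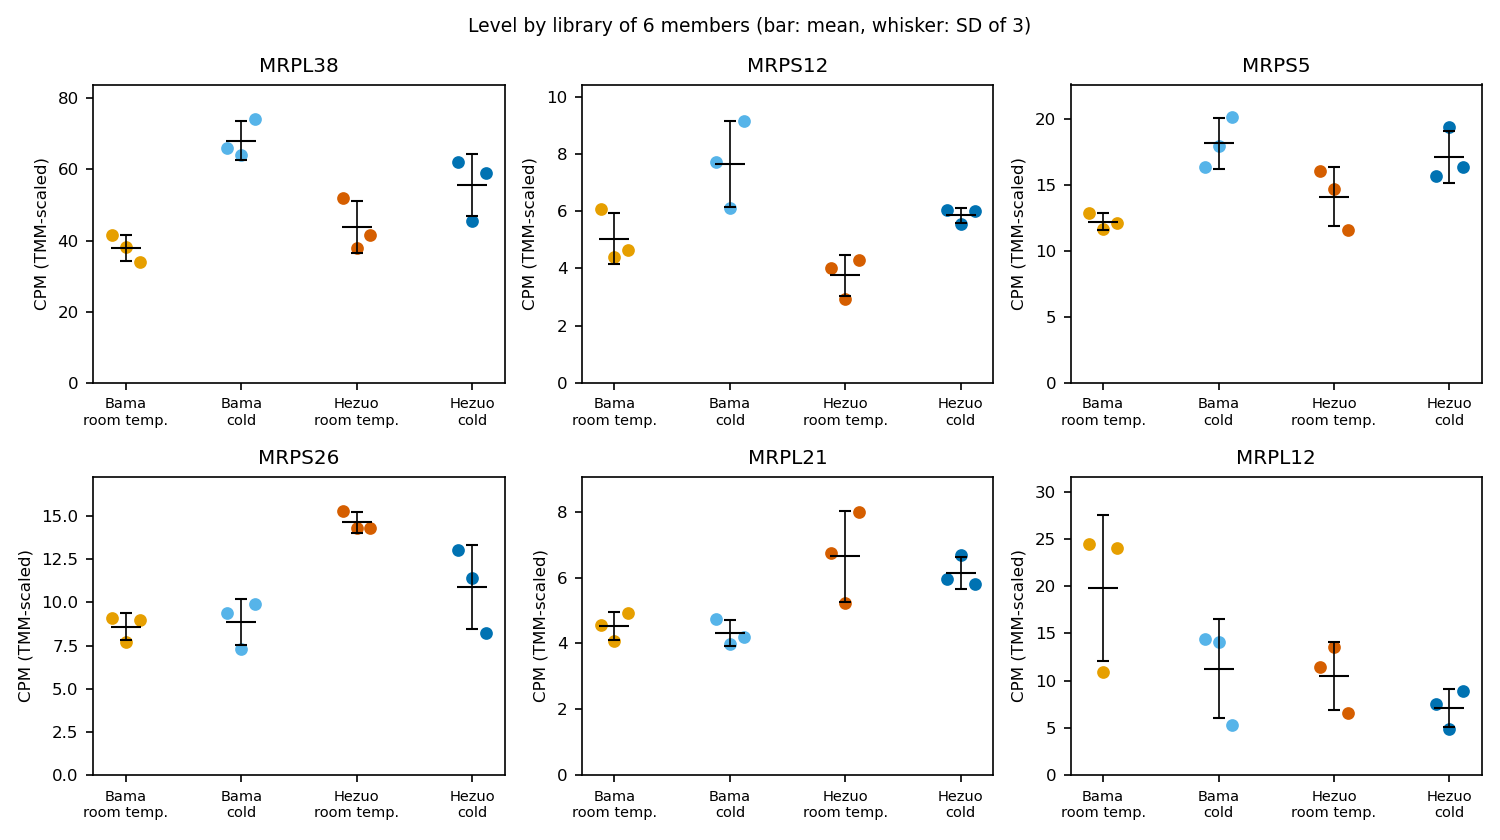
TMM-scaled CPM in each library for the 5 members called in any comparison and for MRPL12, the most variable member, with the mean as a bar and the SD of 3 libraries as a whisker; every axis starts at 0. MRPL38 separates the Bama groups, MRPL21 separates the breeds on this scale but not in FPKM or with library sizes alone, and MRPL12 overlaps between all neighbouring groups.

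Averaged over both breeds, the median log2 fold change for cold was 0.10 for the 22 large subunit proteins with a bacterial relative, 0.16 for the 17 mitochondria-specific ones, 0.15 for the 12 small subunit proteins with a bacterial relative and 0.18 for the 9 mitochondria-specific ones. The 13 rows known only by their description had a median of 0.15 with 9 positive and none called. For the breed averaged over temperatures, 2 of these 13 were called as higher in Hezuo by edgeR's quasi-likelihood test, MRPL15 (0.34, adjusted p 0.031) and MRPL32 (0.47, adjusted p 0.0361), beside 12% of all genes called. In Bama in the cold, the highest of the 13 was MRPS27 (0.91, adjusted p 0.088).

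The other genes of mitochondrial translation were read from lists beside the members, against the 3.89% of all genes called for cold averaged over breeds and the 12% called for the breed. The 20 calls of these genes and of the 13 described rows, over all 7 comparisons, were all lost with Y-linked RNA as a term (adjusted p 0.051 to 0.746 by edgeR's quasi-likelihood test). Of the 20, 12 held with library sizes alone, 8 with a replicate block and all 20 with DESeq2. Fitted on only the 2 groups compared, 0 of 6 held. Without any 1 library, those of TUFM, MRM2 and IARS2 for the averaged breed difference and those of PERM1 and ESRRA for averaged cold were kept. Each other call was lost in 6 to 11 of these 12 fits. Of 13 translation factors tested, 11 were positive for cold averaged over breeds, with a median of 0.27. Only TUFM, the elongation factor that brings tRNA to the ribosome, rose (0.31 ± 0.07, adjusted p 0.0434), and it was also called as higher in Hezuo averaged over temperatures (0.45 ± 0.07, adjusted p 0.00597, edgeR's quasi-likelihood test). Of 22 ribosome assembly factors and rRNA-modifying enzymes, 18 were positive for cold, with a median of 0.13, and METTL17, an assembly factor of the small subunit, rose (0.49, adjusted p 0.0392). Between breeds, 2 of these were higher in Hezuo, the rRNA methyltransferase MRM2 (0.63, adjusted p 0.00777) and NGRN (0.48, adjusted p 0.0418).

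Of the 17 mitochondrial aminoacyl-tRNA synthetases, 11 were positive for cold and none was called, and IARS2 was higher in Hezuo (0.56, adjusted p 0.00723, edgeR's quasi-likelihood test). Of 11 factors of mitochondrial DNA copying and transcription, 2 rose in the cold averaged over breeds, the single-strand binding protein SSBP1 (0.43, adjusted p 0.038) and the RNA-degrading enzyme PNPT1 (0.40, adjusted p 0.0483). SSBP1 also rose in Hezuo alone (0.81, adjusted p 0.0449), and PNPT1 was lower in Hezuo than in Bama averaged over temperatures (-0.36, adjusted p 0.0387, edgeR's quasi-likelihood test). Of 11 regulators, PERM1 (2.55, adjusted p 0.012) and ESRRA (0.65, adjusted p 0.0156), both activators of mitochondrial genes, rose in the cold averaged over breeds, and PERM1 also in Bama alone (2.86, adjusted p 0.0441). The 5 mitochondrial ribosomal proteins with other symbols (DAP3, PTCD3, CHCHD1, AURKAIP1 and GADD45GIP1) were all positive for cold, with a median of 0.08 and none called.

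The products of this ribosome are the mitochondrially encoded subunits. All 13 had positive log2 fold changes for cold averaged over breeds, with a median of 0.35, but none was called, and 3 had an unadjusted p below 0.05. Their summed level ranged from 13725 to 22782 CPM in Bama at room temperature, 20144 to 22132 CPM in Bama in the cold, 20174 to 29293 CPM in Hezuo at room temperature and 18195 to 30483 CPM in Hezuo in the cold, so all neighbouring groups overlapped. Only CYTB, a subunit of complex III, was called between breeds (0.69 ± 0.20, adjusted p 0.0456, edgeR's quasi-likelihood test).

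Circular RNAs from the members were few. The members hosted 15 of the 24177 circRNAs, closed loops counted by the reads that join a later exon end to an earlier exon start, and 18.0% of members hosted any, against 41.4% of all genes tested. They held 234 back-splice counts, 0.0374% of all, while the members' gene counts were 0.111% of all gene counts. Of the 15, 14 lay inside the span of their host in the RefSeq table, and that of MRPL55 did not.

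The most counted was that of MRPS5, at chr3:46142071-46151353 on the plus strand of the deposited table's build, which the sources used here do not name, with 100 counts in 11 of 12 libraries. It varied from 27, 3 and 6 counts in Bama at room temperature to 7, 9 and 14 in Bama in the cold, and from 14, 7 and 1 to 11, 0 and 1 in Hezuo. MRPL22 followed with 32 counts (chr16:68241326-68250610). Of the circRNAs of MRPL37, that at chr6:158113662-158125557 had 5 counts, all in Bama replicate 3 at room temperature. That at chr6:158125389-158138639 had 1 count in Bama replicate 1 in the cold and 2 in Hezuo replicate 3 at room temperature. The most counted of MRPL37, at chr6:158113662-158125574, had 2, 3 and 5 counts in Bama and 2, 9 and 3 in Hezuo at room temperature. In the cold it had 0, 0 and 0 in Bama and 1, 0 and 0 in Hezuo.

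Every room temperature library thus exceeded every cold library for the most counted MRPL37 circRNA. Its counts were so low that the averaged cold comparison gave an adjusted p of 0.216 (edgeR's quasi-likelihood test over 9032 circRNAs). By the same test its unadjusted p was 0.00123. The gene MRPL37 itself was not called in any comparison. The circRNAs of MRPL2 (12 counts) and MRPL55 (13 counts) were found in Bama libraries only. That of MRPL2 was detected in 6 libraries and that of MRPL55 in 3. The MRPL55 counts came from cold replicates 2 (2 counts) and 3 (5 counts) and room temperature replicate 2 (6 counts). Other Bama libraries also had 0, so absence of the MRPL55 circRNA was not particular to Hezuo. For both circRNAs, the count of 0 among 278637 back-splice counts of Hezuo allows up to 10.8 per 1000000, covering counting error only. Pooled over Bama, the values were 34.5 and 37.4 per 1000000. The adjusted p for the breed averaged over temperatures was 0.185 and 0.165 (edgeR's quasi-likelihood test). Of the 15, 6 could be tested, and none was called in any of 7 comparisons by edgeR's quasi-likelihood test. Of all 9032 circRNAs tested, 0.0886% were called for cold in Hezuo, 0.155% for cold in Bama and 0.199% for cold averaged over breeds. For the breed, 0.454% were called at room temperature, 0.421% in the cold and 1.28% averaged over temperatures, and 0.0886% for the difference between the breeds in the cold response. At an unadjusted p below 0.05 stood that of MRPL37 in the 3 cold comparisons, and those of MRPL2 and MRPL55 for the breed in the cold and averaged over temperatures.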

How the data were processed

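Liver RNA of 12 libraries was analysed, with groups and replicate numbers taken from the labels. Per the labels' protocols, RNA was depleted of ribosomal RNA and made into libraries that keep the strand, and fastp, which trims reads, is named in the submitters' processing notes. Not given in the sources used here are the aligner, the counter, the circRNA caller, the genome build and whether counting used strand, and 21 of 60 members placed in RefSeq overlap another gene there. The authors deposited estimated counts per gene, not normalized, of which 9.48% of the nonzero values were fractional and were rounded. The authors also deposited FPKM values, used here for levels between genes and to set the breeds side by side for MRPS26 and MRPL21. The circRNA table holds whole back-splice read counts that the authors deposited, beside RPM values, which the authors deposited too and which were not used.

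Genes were tested with edgeR 4.0.16 in R 4.3.3 (robust quasi-likelihood, TMM factors 0.874 to 1.20, filterByExpr with a minimum count of 10 and a minimum total of 15, a model of 4 groups on 12 libraries with 8 residual degrees of freedom), with Benjamini-Hochberg adjustment over 13532 genes and a threshold of 0.05, for 7 contrasts. The SE is the absolute log2 fold change over the square root of F. CPM values are TMM-scaled. The same test was run on 9032 circRNAs (minimum 2 counts in 3 or more libraries, 10 in all). DESeq2 1.42.0, other scalings, no filter, a replicate term, a Y-linked term (presence of Y-linked RNA at 100 counts or more), fits of only the groups compared and the loss of each library were alternatives. The script was tested on simulated data.

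The members and lists were chosen with earlier results of these data known. Members were named by rule: those called or, failing that, the 6 with the smallest p of each contrast, its 3 highest and 3 lowest fold changes, the 5 highest and 5 lowest levels, members of unusual place in the ribosome, and hosts of a circRNA with 20 counts or more. Of other lists, called genes were named. The row described as MRPS27 and the circRNAs of MRPL2 and MRPL55 were named after their values were seen. Replicates of a group correlated over genes at r = 0.963 to 0.977 and differed beyond sampling noise (chi-square per degree of freedom 75.0 to 199), so none were merged. As the labels do not state that all 12 came from separate animals, p-values measure the spread between these libraries. Intervals and floors cover counting error only.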

Additional observations from a re-analysis of the deposited data

How the results depend on the processing

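Calls were compared under 9 other settings and without each of 12 libraries, with library sizes alone, upper-quartile factors and the addition of rows named by description chosen after seeing the data. Single genes were compared only if called, among the 6 smallest p or among the 3 highest or 3 lowest fold changes of a contrast. Such a choice made a stable sign likely beforehand. Of 1658 comparisons of these genes, none changed sign, 241 lost a call and 32 gained one. Among all members signs did change, as in the breed medians that reversed with library sizes alone. Medians and counts stayed in 265 of 307 comparisons by a wide margin of tolerance. A median stayed if it kept its sign and moved by less than 0.125, the pooled SD of the library medians. That margin is as large as several of the medians, so the fall from 0.11 to 0.02 for cold in Hezuo counted as staying. A count of 0 that remained 0 also counted as staying. With Y-linked RNA as a term, 0 members were called for cold in Bama, for cold averaged and for breed averaged. Calls over all 13532 genes then went from 125 to 1, from 526 to 6 and from 1620 to 21. That term rested on the libraries of Bama in the cold alone, the only group in which it varied. Fitted on the 2 Bama groups alone, 0 were called for cold, beside 12 of 13299 genes. DESeq2 called 4 for cold in Bama (5.04% of all genes), 3 for breed at room temperature (7.66%), 9 for cold averaged (11%) and 7 for breed averaged (19%). With library sizes alone, 4 were called for cold in Bama (median 0.31), beside 2.12% of all genes, 5 for breed in the cold, beside 16.1%, 12 for cold averaged, beside 8.25%, and 8 for breed averaged, beside 32.4%. Neither MRPS26 nor MRPL21 was among those 8, and MRPS12, for one, was then called as lower in Hezuo. The breed medians then reversed to -0.056 at room temperature, -0.25 in the cold and -0.16 averaged, with medians of all genes at -0.22, -0.32 and -0.26, and members higher in Hezuo without overlap fell to 2 and 0. With the 13 described rows, 4 were called for breed averaged, beside 12% of all genes. Without 1 library, the count ranged from 0 to 1 for cold in Bama, beside 0.132% to 0.97% of all genes. For breed at room temperature it ranged from 0 to 1, beside 0.0586% to 4.35% (MRPS26 without Hezuo replicate 3 in the cold, adjusted p 0.0464 by edgeR's quasi-likelihood test). For cold averaged it ranged from 0 to 2, beside 0.955% to 4.42% (0 without Bama replicate 3 at room temperature). For breed averaged it ranged from 0 to 4, beside 5.08% to 14% (0 without Hezuo replicate 1 at either temperature). The cause was not tested.

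With a replicate block, 2 members were called for cold averaged, beside 2.67% of all genes. For breed averaged 3 were called, beside 9.68%, and for cold in Bama 1, beside 0.495%. MRPS5 lost its averaged cold call there (adjusted p 0.0718 by edgeR's quasi-likelihood test). In Bama, DDX3Y had 2 and 0 counts in replicates 1 and 3 at room temperature but 2284 and 3769 in the cold. Taken as labelled, those numbers thus do not stand for the same animal at both temperatures. For Bama replicate 2 and for Hezuo, whether the numbers pair the samples was not settled. Over all groups, 3 of 18 same-number pairs correlated above 0.1 in their deviations from the group means (range -0.20 to 0.15). Pairs across breeds are among these 18 and cannot share an animal. Between the temperatures in Bama, same-number pairs stood at 0.14, 0.15 and 0.02, and other pairs at 0.01 or less. In Hezuo, same-number pairs stood at -0.08, 0.08 and -0.01, and other pairs reached 0.11.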
